A study of Mus musculus with 16 samples.

Results

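The comparison was an antibody against integrin alpha-V (anti-ITGAV, described as neutralizing) set against IgG in mouse bone marrow macrophages, averaged over uncoated and fibronectin-coated dishes. It used all 16 of the 16 libraries, 8 with anti-ITGAV and 8 with IgG, chosen by their labels alone. The antibody term came from an additive model that also held the dish coating, so each antibody library was read against IgG libraries of its own coating. Tibial marrow came from wild-type C57BL/6J mice aged 2 to 3 months. Marrow cells were kept for 24 hours with CSF-1 at 12 ng/ml. The cells that had not attached were reseeded for 48 hours with CSF-1 at 120 ng/ml, both in medium with 15% fetal calf serum. The macrophages were passaged once, onto dishes coated overnight with fibronectin at 10 µg/ml or onto ordinary culture dishes, and grown to confluence. Each coating then received 10 µg/ml of either IgG or anti-ITGAV for 24 hours, in 4 libraries per combination. The labels give neither the number of mice nor whether the 4 libraries of a group came from separate cultures. The p-values therefore measure the spread between these libraries, which may be technical. A single time point and a single dose of the antibody were sampled.

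Integrin alpha-V pairs with several beta subunits, and the pairs bind RGD-containing matrix proteins such as fibronectin and vitronectin and take part in cell attachment, in clearing dying cells and in activating latent TGF-beta. Ligand-bound integrins signal through focal adhesion kinases and the ERK pathway, whose classical transcriptional targets are the immediate early genes. Serum contains RGD-bearing ligands, so cells on ordinary culture dishes also meet them.

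The libraries held 27995035 to 43413650 counts. Macrophage transcripts were abundant, with a mean of 479 FPKM for Csf1r (the CSF-1 receptor), 976 for Cd68 (a lysosomal glycoprotein) and 455 for Adgre1 (F4/80). The median over 22 macrophage identity genes was 458 FPKM, against 3.64 FPKM over 30 neutrophil granule and lineage genes. Of 25 B, T and NK cell genes 10 were tested, with Ighm (immunoglobulin heavy chain) the most abundant at 26.2 FPKM, and Cd3e and Cd8a were among those too low to test. None of the 10 was called by edgeR, and their median log2 difference by antibody was 0.04. DESeq2 with the GC correction called 1 of them, against 0.776% of all genes with a p-value. This was Il7r (the interleukin-7 receptor), at 0.27 (DESeq2 adjusted p = 0.0071), where edgeR gave 0.0593. Fibronectin anti-ITGAV 3 stood apart from the other 15 libraries. Its share of counts in mitochondrial genes was 3.67%, against 1.3% to 1.6% elsewhere. Its gene-wise deviations ran with GC content at a Spearman rho of -0.703, against -0.296 to 0.546 elsewhere. That trend was taken out of every library by an offset fitted per library, after which rho lay between -0.015 and 0.019 in all 16. A difference by antibody, permuted within coating, did not pass for either measure. The exact two-sided permutation p was 0.944 for the GC rho and 0.797 for the mitochondrial share (both 0.944 after Benjamini-Hochberg adjustment over these 2 measures). The test averages over the coatings, so opposite differences on them can cancel. On uncoated dishes the GC rho was -0.141, -0.197, -0.296 and 0.403 under IgG and 0.508, 0.198, 0.390 and -0.229 under anti-ITGAV. On fibronectin it was -0.286, 0.546, 0.393 and -0.249 under IgG and -0.192, 0.269, -0.703 and 0.037 under anti-ITGAV. The difference within each coating was not tested. Levels are given as CPM, scaled by TMM factors, after the GC correction (GC-adjusted CPM), and FPKM is used only to compare levels between genes.

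**Figure D1:**
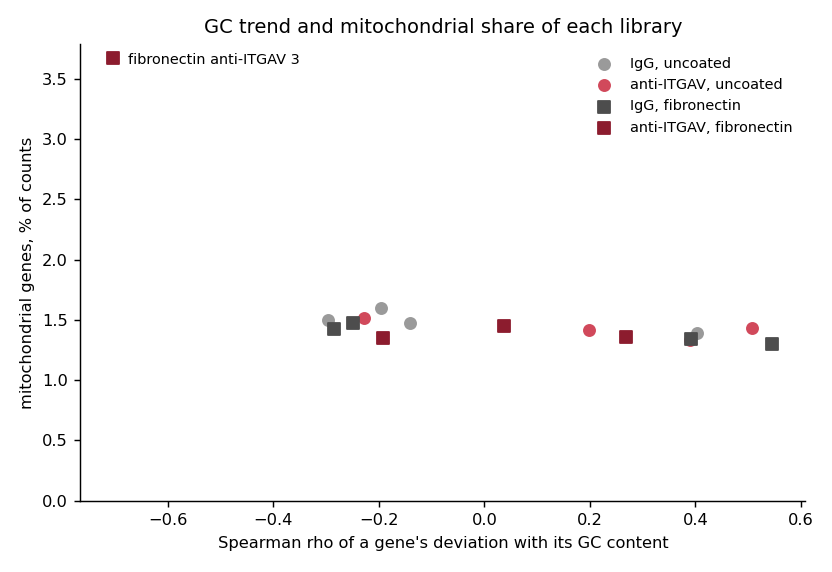
Each point is a library, with the Spearman rho between a gene's deviation from its mean and the gene's GC content on the x axis and the percentage of counts in mitochondrial genes on the y axis, before any correction. Fibronectin anti-ITGAV 3 lies alone at -0.703 and 3.67%, while the other 15 libraries span rho values from -0.296 to 0.546 at 1.3% to 1.6%.

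With anti-ITGAV, 38 genes rose and 8 fell among 15469 tested (edgeR quasi-likelihood test, adjusted p under 0.05). These 46 were 0.297% of the genes tested, 0.246% for those that rose and 0.0517% for those that fell. The changes were modest: the absolute log2 change ran from 0.18 to 1.32 with a median of 0.39, and 13 genes reached 1.5-fold and 1 gene reached 2-fold. The genes that rose included the serum- and ERK-inducible transcription factors Fos, Egr1, Egr2, Atf3 and Nr4a1, the motor protein Myo1e and the lipase Lpl. Of the genes that fell, 6 of 8 belonged to the neutrophil granule and lineage list: Ltf, Lcn2, Camp, S100a9, Ctsg and Ngp. All 46 had the same sign on both coatings. For 31 the anti-ITGAV and IgG libraries did not overlap on either coating, which was the case for 0.375% of all tested genes. The 46 were called on the average over these same libraries, which favours equal signs and separation. Neither is separate evidence of the effect. Without fibronectin anti-ITGAV 3, 67 genes passed, among them all 46 (0.425% of the genes tested, with 55 or 0.349% higher and 12 or 0.0761% lower). Without the GC correction 9 genes passed with all 16 libraries (0.0582%) and 22 with 15 (0.14%). The median SE of a gene's log2 change was then 0.134 in place of 0.0952. Myo1e, Fos, Lpl, Ltf and Ngp, described next, were chosen with earlier results of these data known, so their passing is not separate evidence.

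Myo1e, a long-tailed class I myosin that links actin to membranes at adhesions and phagocytic cups, lies on the forward strand of chromosome 9 (70207350 to 70399766, GRCm38). It stood at 80.2, 80.6, 92.0 and 91.6 GC-adjusted CPM in uncoated IgG libraries 1 to 4 and at 139, 123, 126 and 134 in uncoated anti-ITGAV. On fibronectin it stood at 133, 134, 137 and 144 under IgG and at 173, 173, 192 and 172 under anti-ITGAV. All 4 antibody libraries were above all 4 IgG libraries on each coating, and the uncoated anti-ITGAV libraries overlapped the range of fibronectin IgG. The log2 change was 0.49 (SE 0.050, edgeR adjusted p = 4.99e-05), a rise of 40.0%. It was 0.60 on uncoated dishes (SE 0.063) and 0.37 on fibronectin (SE 0.063).

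Fos, the AP-1 subunit induced within minutes by serum, growth factors and adhesion, lies on chromosome 12 (85473890 to 85477273, forward strand). Without coating it read 19.2, 17.4, 20.3 and 17.8 GC-adjusted CPM under IgG and 34.8, 30.3, 27.6 and 26.7 under anti-ITGAV. With fibronectin it read 30.4, 28.5, 24.3 and 30.7 under IgG and 39.9, 42.5, 50.8 and 42.2 under anti-ITGAV. The antibody groups lay above the IgG groups on each coating without overlap. The log2 change was 0.65 (SE 0.069, edgeR adjusted p = 4.99e-05). The 2 coatings gave 0.68 (uncoated) and 0.62 (fibronectin).

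Lpl, the secreted lipase that hydrolyses triglycerides in lipoproteins, lies on chromosome 8 (68880491 to 68907448, forward strand) and was among the more abundant called genes at 171 FPKM. Uncoated dishes held 1298, 1320, 1470 and 1429 GC-adjusted CPM under IgG and 1864, 1991, 2018 and 2091 under anti-ITGAV. Fibronectin dishes held 1699, 1644, 1597 and 1868 under IgG and 2249, 2235, 2034 and 1980 under anti-ITGAV. The groups did not overlap after the GC correction, and the log2 change was 0.42 (SE 0.049, edgeR adjusted p = 1.16e-04). Before the correction the Lpl libraries overlapped on both coatings (1301 to 1600 against 1535 to 2251 CPM on uncoated dishes, and 1307 to 2047 against 1970 to 2595 on fibronectin). The change was then 0.43 with an SE of 0.099, and edgeR's adjusted p was 0.191 with 16 libraries and 0.243 without fibronectin anti-ITGAV 3. DESeq2 without the GC correction did call Lpl, at 0.44 (SE 0.107, adjusted p = 0.0157).

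Ltf, the iron-binding protein of secondary neutrophil granules, lies on chromosome 9 (111019271 to 111042767, forward strand). On uncoated dishes it stood at 70.6, 69.4, 63.3 and 65.6 GC-adjusted CPM under IgG and at 44.7, 49.1, 41.6 and 42.8 under anti-ITGAV. On fibronectin it stood at 55.7, 68.5, 66.9 and 51.7 under IgG and at 33.7, 30.3, 32.5 and 29.6 under anti-ITGAV. All 8 antibody libraries were below all 8 IgG libraries, as for 0.0582% of the genes tested in either direction. Ltf had the smallest adjusted p of the comparison (1.57e-05, edgeR), and its log2 change was -0.77 (SE 0.071).

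Ngp, neutrophilic granule protein, lies about 600 kb from Ltf on the same chromosome (110419747 to 110423012, forward strand). On uncoated dishes it fell from 110, 101, 106 and 98.7 GC-adjusted CPM under IgG to 70.7, 76.1, 70.6 and 64.3 under anti-ITGAV. On fibronectin the IgG libraries held 76.9, 101, 94.7 and 78.7 and the anti-ITGAV libraries 46.4, 41.3, 81.5 and 43.9. The value of 81.5 belonged to fibronectin anti-ITGAV 3 and lay inside the IgG range, while the other 3 lay below it. The log2 change was -0.64 (SE 0.115, edgeR adjusted p = 0.0175) with that library and -0.76 without it (adjusted p = 1.29e-04). Without the GC correction the adjusted p was 0.0565 with 16 libraries and 0.00104 with 15. Leaving out fibronectin IgG 3 instead gave an adjusted p of 0.0502.

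**Figure D2:**
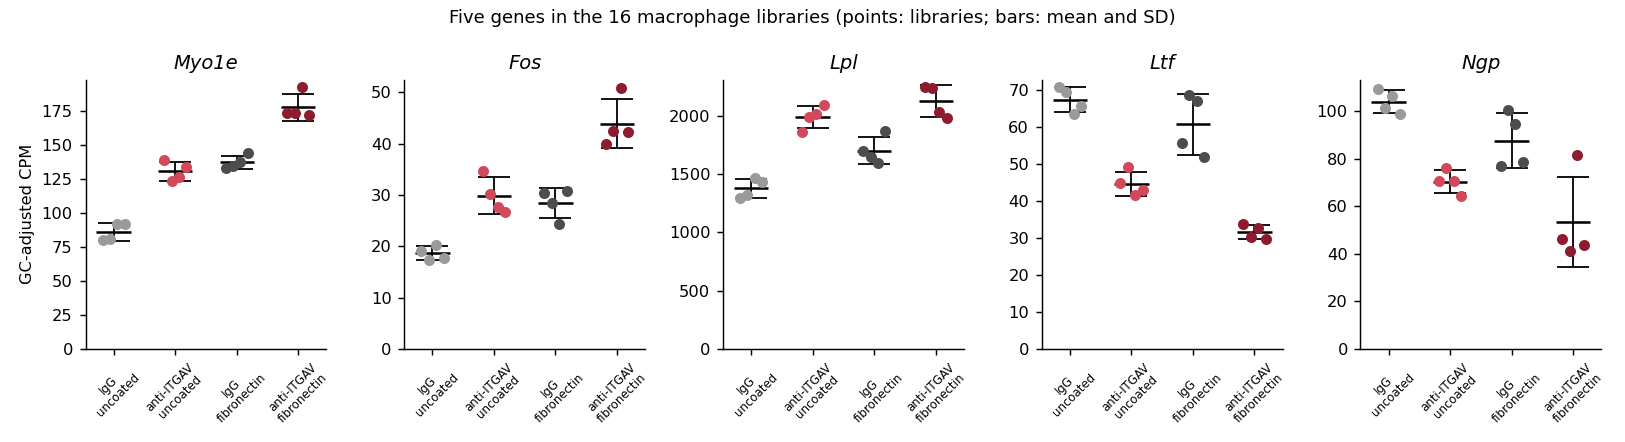
GC-adjusted CPM (y axis, from 0) of Myo1e, Fos, Lpl, Ltf and Ngp in the 4 groups of 4 libraries, with points for libraries and bars for the mean and SD. Myo1e, Fos and Lpl were higher and Ltf lower with anti-ITGAV in every library of each coating, and the 1 Ngp library at 81.5 on fibronectin is fibronectin anti-ITGAV 3.

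The 150 bases before the annotated starts of Myo1e, Dusp5, Ltf and Ngp are shown because they hold matches to motifs of the factors classically tied to their gene groups. The CArG box is bound by serum response factor at immediate early and actin-related genes, and the C/EBP motif TTNNGCAA is known from granule genes. Both strands of the 250 bases upstream of each start were searched, in RefSeq sequence of GRCm38.p6. Capitals mark the matches, each sequence is on the forward strand, and positions count back from the RefSeq start.
Myo1e, chr9:70207200-70207349: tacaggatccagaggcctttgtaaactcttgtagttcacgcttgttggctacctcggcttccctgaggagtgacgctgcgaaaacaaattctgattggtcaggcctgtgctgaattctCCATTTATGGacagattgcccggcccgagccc
Dusp5, chr19:53528959-53529108: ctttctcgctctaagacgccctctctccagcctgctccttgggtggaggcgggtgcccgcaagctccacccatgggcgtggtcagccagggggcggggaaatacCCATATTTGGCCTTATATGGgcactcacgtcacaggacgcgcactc
Ltf, chr9:111019121-111019270: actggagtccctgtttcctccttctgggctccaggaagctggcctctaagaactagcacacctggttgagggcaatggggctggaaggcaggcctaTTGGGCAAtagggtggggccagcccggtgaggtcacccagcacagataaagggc
Ngp, chr9:110419597-110419746: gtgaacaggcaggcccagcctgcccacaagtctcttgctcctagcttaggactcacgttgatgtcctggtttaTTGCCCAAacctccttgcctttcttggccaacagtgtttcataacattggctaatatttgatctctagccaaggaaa

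In Myo1e the CArG box match lay 32 to 23 bases before the start. Dusp5 held 2 such matches side by side, at 82 to 73 and 72 to 63 bases. The C/EBP match in Ltf lay 75 to 68 bases before the start, and Ngp held one at 138 to 131 bases and another at 11 to 4 bases, outside the stretch shown. A CArG box match was present upstream of 3 of the 28 genes that rose and had a RefSeq promoter (Dusp5, Myo1e and Zfp36), against 1.05% of 10346 tested genes. A C/EBP match was present in 4 of the 8 genes that fell (Lcn2, Ltf, Ngp and S100a9), against 7.49%. It was also present in 2 of the 28 that rose (Cytip and Mmp12). The cyclic AMP response element TGACGTCA was found at Dusp1 and Plk2 (2.71% of all), and the AP-1 site TGANTCA at Mmp13 (4.36% of all). Of the 8 called immediate early and ERK feedback genes, 7 had a RefSeq promoter, all but Egr1. The windows of 3 of these held a match to 1 or more of the 4 motifs (Dusp5, Zfp36 and Dusp1), and those of 4 held none (Fos, Atf3, Egr2 and Nr4a1). Sites farther upstream or with differing letters were not searched for, so these 4 genes may still hold such sites. These matches describe letters in a window, binding was not measured, and the motifs were chosen after the called genes were known.

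Of 26 immediate early genes tested, 6 rose (Fos, Zfp36, Atf3, Egr2, Egr1 and Nr4a1) and none fell, against 0.246% and 0.0517% of all genes tested. The log2 change was positive for 24 of the 26, against 7812 of all 15469 genes tested. Its median was 0.13, against 0.00 over all genes tested. After coating and antibody were taken out, the list median varied between libraries with an SD of 0.057. Egr1, a zinc-finger factor and classical ERK target, had the largest change of the 46 at 1.32 (SE 0.231, edgeR adjusted p = 0.00982), at a low level of 0.326 FPKM. It read 0.862, 1.15, 0.552 and 0.787 GC-adjusted CPM in uncoated IgG and 2.15, 0.824, 2.85 and 2.18 in uncoated anti-ITGAV. On fibronectin it read 0.928, 0.712, 1.02 and 0.866 under IgG and 1.75, 1.67, 3.30 and 2.60 under anti-ITGAV. The groups overlapped on uncoated dishes through uncoated anti-ITGAV 2 and did not overlap on fibronectin.

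Egr2, a relative of Egr1, rose by 0.52 on the log2 scale (SE 0.090, edgeR adjusted p = 0.00961). Its libraries lay at 4.49 to 6.41 GC-adjusted CPM in uncoated IgG and 6.69 to 9.91 in uncoated anti-ITGAV, and on fibronectin at 7.84 to 9.34 and 11.5 to 13.6, without overlap. Atf3, a stress- and adhesion-inducible repressor of the ATF/CREB family, was the most abundant of the group at 60.5 FPKM. Its 8 IgG libraries lay at 106 to 125 GC-adjusted CPM and its 8 antibody libraries at 136 to 182, without overlap, and the log2 change was 0.35 (SE 0.049, edgeR adjusted p = 0.00104). Fibronectin anti-ITGAV 3 was the highest of the Atf3 libraries.

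Zfp36, which encodes the mRNA-destabilising protein tristetraprolin, rose by 0.29 on the log2 scale (SE 0.039, edgeR adjusted p = 5.85e-04). Its uncoated libraries lay at 85.0 to 94.6 GC-adjusted CPM under IgG and 103 to 114 under anti-ITGAV. Its fibronectin libraries lay at 69.4 to 75.4 under IgG and 88.9 to 92.9 under anti-ITGAV. Nr4a1, an orphan nuclear receptor, changed by 0.62 (SE 0.123, edgeR adjusted p = 0.0252). It was one of the less stable calls and kept its side of the threshold in 9 of 16 fits that each left out 1 library. Egr3 had a log2 change of 1.01 (SE 0.269) with an edgeR adjusted p of 0.185. Jun and Junb, the partners of Fos in AP-1, did not pass, and their values were 0.09 (SE 0.059) and 0.06 (SE 0.087).

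Without the GC correction the count of immediate early genes that rose was 1 of 26 (Fos) with all 16 libraries and again 6 of 26, the same 6 genes, without fibronectin anti-ITGAV 3. With the correction it was 6 in both cases. Of all genes tested, 0.0388% rose without the correction and 0.0951% without it and without fibronectin anti-ITGAV 3.

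Among 16 genes of ERK pathway feedback, 2 rose and none fell, against 0.246% and 0.0517% of all genes tested. Dusp5, a nuclear phosphatase of ERK, rose by 0.69 on the log2 scale (SE 0.116, edgeR adjusted p = 0.00737). On uncoated dishes it lay at 3.11 to 4.21 GC-adjusted CPM under IgG and 4.38 to 6.94 under anti-ITGAV. On fibronectin it lay at 3.75 to 5.46 and 5.59 to 7.96, again without overlap. Dusp1, another phosphatase of MAP kinases, changed by 0.28 (SE 0.056, adjusted p = 0.0252), and this call was lost in 9 of the 16 fits that left out 1 library. The cytoplasmic ERK phosphatase Dusp6 (-0.04, SE 0.073) and the transcription factor Etv5 (-0.02, SE 0.063), also known as ERK-responsive, did not pass. The list median was 0.09, and it varied between libraries with an SD of 0.097 after coating and antibody were taken out. Of 23 NF-kB targets and inflammatory cytokines, none passed, with a median of 0.05 and a corresponding SD of 0.082.

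Of 30 neutrophil granule and lineage genes, 6 fell and none rose, while 0.0517% of all genes tested fell and 0.246% rose. The log2 change was negative for 25, against 7657 of all 15469 genes tested. The list median was -0.26, and it varied between libraries with an SD of 0.12 after coating and antibody were taken out. The 6 were Ltf, Lcn2, Camp, S100a9, Ctsg and Ngp. They encode proteins that neutrophils and their marrow precursors store in granules or, for S100a9, in the cytosol. In bulk RNA fewer cells of a type and less RNA per cell cannot be told apart. The summed level of the 30 genes was 1020 to 1143 GC-adjusted CPM in the IgG libraries and 881 to 1040 in the anti-ITGAV libraries. These ranges pool both coatings, and they overlapped. Overlap of the sum within a coating was not looked at. The summed level of the 22 macrophage identity genes, again over both coatings, overlapped between the antibodies (38963 to 47351 CPM for IgG against 40767 to 48070).

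Lcn2, the siderophore-binding protein lipocalin-2, had all 8 antibody libraries (13.5 to 22.0 GC-adjusted CPM) below all 8 IgG libraries (22.3 to 30.2). Its log2 change was -0.59 (SE 0.075, edgeR adjusted p = 4.21e-04). Camp, the cathelicidin precursor, stood at 6.84 to 8.53 under IgG and 4.89 to 6.01 under anti-ITGAV on uncoated dishes. On fibronectin Camp stood at 5.58 to 6.78 and 2.74 to 3.91, and its log2 change was -0.68 (SE 0.105, edgeR adjusted p = 0.00365). S100a9, a subunit of calprotectin and the most abundant of the 6 at 180 FPKM, fell by 0.55 on the log2 scale (SE 0.084, edgeR adjusted p = 0.00369). Its fibronectin libraries lay at 84.4 to 122 GC-adjusted CPM under IgG and 57.2 to 68.3 under anti-ITGAV. Its uncoated libraries lay at 116 to 124 and 80.7 to 102. Ctsg, the azurophil granule protease cathepsin G, fell by 0.59 on the log2 scale (SE 0.110, edgeR adjusted p = 0.0165), at 1.84 to 5.17 GC-adjusted CPM. Its adjusted p was 0.0529 without uncoated IgG 3.

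Other members were low or did not pass. S100a8, the partner of S100a9 in calprotectin, had a log2 change of -0.23 (SE 0.182) at 105 FPKM. The azurophil genes Mpo (-0.07, SE 0.061) and Elane (-0.25, SE 0.145) and the surface marker Ly6g (-0.34, SE 0.295) stood at 3.62, 5.14 and 1.15 FPKM and did not pass. Olfm4, a granule protein at 0.263 FPKM, had the lowest value of the list at -1.12 (SE 0.303, edgeR adjusted p = 0.211).

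Without fibronectin anti-ITGAV 3, 9 of the 30 fell, against 0.0761% of all genes tested. They were the same 6 and Chil3, Cd177 and Pglyrp1. Chil3 also belongs to the lists of monocyte genes and of alternative activation and repair. Without the GC correction 3 fell with all 16 libraries (Ltf, Lcn2 and S100a9) and 6 with 15 libraries (those 3, Ngp, Pglyrp1 and S100a8), against 0.0194% and 0.0444% of all genes tested. Camp, Ngp and Ltf lie near one another on chromosome 9. Camp (start 109847379) is 572 kb from Ngp with 8 tested genes between them, and Ngp is 600 kb from Ltf with 11 between them.

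**Figure D3:**
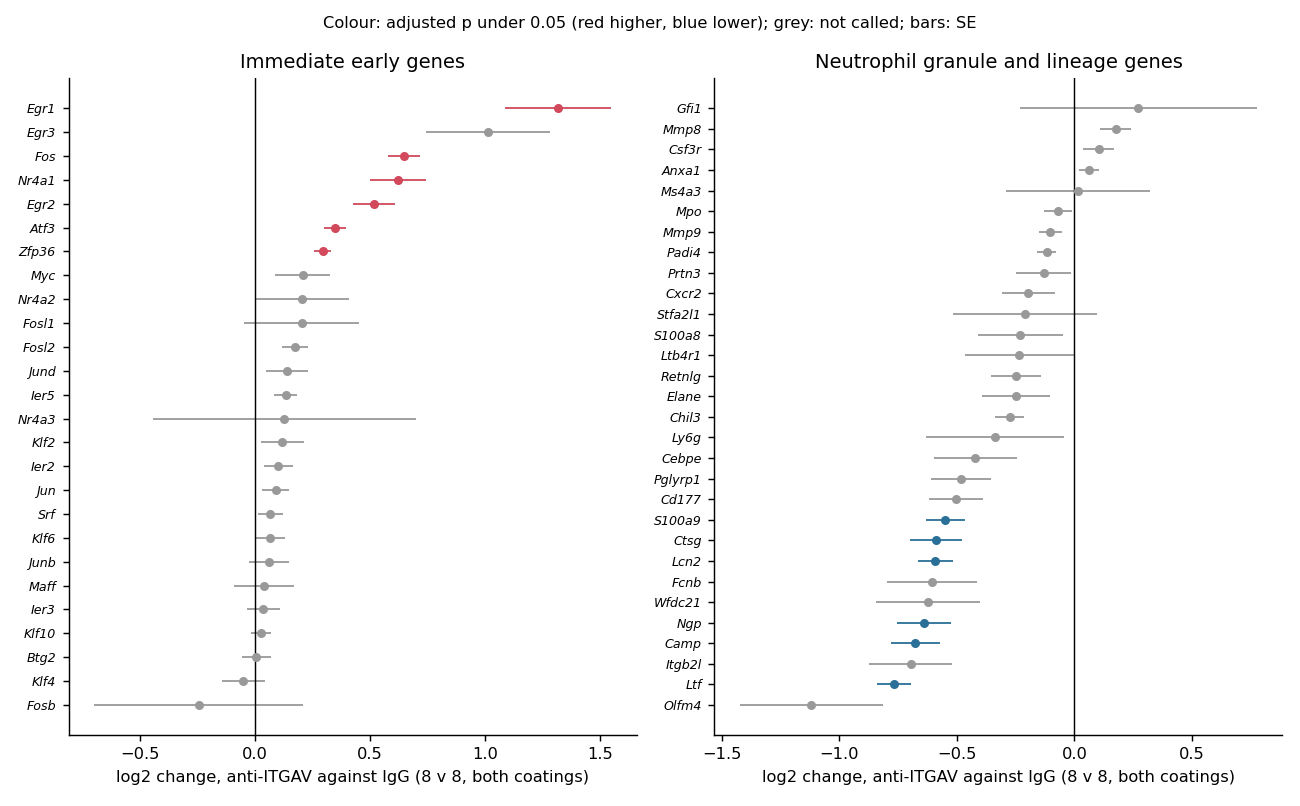
Log2 change, anti-ITGAV against IgG over both coatings (x axis, bars: SE), of each tested immediate early gene (left, 26 genes) and each neutrophil granule and lineage gene (right, 30 genes). Genes that passed are coloured: 6 to the right of 0 on the left, led by Egr1 at 1.32, and 6 to the left of 0 on the right, led by Ltf at -0.77, with grey genes not called.

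Prss34, a basophil and mast cell protease, was the only one of 16 mast cell, basophil and eosinophil genes that passed. Prss34 fell by 0.60 on the log2 scale (SE 0.101, edgeR adjusted p = 0.00737), while 0.0517% of all genes tested fell. On fibronectin its libraries stood at 7.96 to 10.4 GC-adjusted CPM under IgG and 4.82 to 6.29 under anti-ITGAV, and on uncoated dishes they overlapped (13.5 to 20.1 against 10.4 to 15.1). Mcpt8, a basophil protease, had a log2 change of -0.62 and an edgeR adjusted p of 0.118, and it passed without fibronectin anti-ITGAV 3 (-0.77, SE 0.120, adjusted p = 0.00391). The list's median was -0.20, and it varied between libraries with an SD of 0.188 after coating and antibody were taken out. Its summed level over both coatings overlapped (167 to 262 GC-adjusted CPM under IgG, 162 to 245 under anti-ITGAV). Ccr3, a chemokine receptor of eosinophils and basophils, had a positive value of 0.34 (SE 0.099) and did not pass. The eighth gene that fell was Cmss1, a ribosomal small subunit-associated protein gene, at -0.39 (SE 0.082, edgeR adjusted p = 0.0483). Cmss1 passed in 1 of the 16 fits that left out 1 library.

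Other genes that rose encode regulators of signalling and migration. Cytip, which holds the integrin regulator cytohesin-1 in the cytosol, rose by 0.63 on the log2 scale (SE 0.072, edgeR adjusted p = 1.16e-04). On uncoated dishes it lay at 16.1 to 19.5 GC-adjusted CPM under IgG and 24.3 to 32.5 under anti-ITGAV, and on fibronectin at 11.4 to 13.2 and 16.9 to 18.4. The groups did not overlap on either coating. Rgs1 and Rgs2, neighbours about 243 kb apart on chromosome 1 with no tested gene between them, encode inhibitors of G-protein signalling. Rgs1 rose by 0.71 (SE 0.109, edgeR adjusted p = 0.00348) and Rgs2 by 0.25 (SE 0.042, adjusted p = 0.00676). Plk2, a stress-inducible polo-like kinase, rose by 0.39 (SE 0.053, edgeR adjusted p = 6.86e-04), and Pcdh7, a protocadherin, by 0.44 (SE 0.059, adjusted p = 6.57e-04).

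Among the remaining genes that rose were surface receptors, ion and metabolite handlers and regulators of survival and fate. Clec7a, the beta-glucan receptor dectin-1, rose by 0.34 (SE 0.061, edgeR adjusted p = 0.0143), and Cd72, an inhibitory lectin-like receptor, by 0.30 (SE 0.050, adjusted p = 0.00676). Kcnj2, an inward-rectifier potassium channel, rose by 0.46 (SE 0.080, edgeR adjusted p = 0.00961) and lay on uncoated dishes at 10.1 to 12.8 GC-adjusted CPM under IgG and 14.4 to 17.4 under anti-ITGAV. Hpgd, which degrades prostaglandins, rose by 0.34 (SE 0.065, edgeR adjusted p = 0.0175) and Slc23a2, a vitamin C transporter, by 0.19 (SE 0.036, adjusted p = 0.0191). The 8 antibody libraries of Slc23a2 (183 to 211 GC-adjusted CPM) lay above its 8 IgG libraries (161 to 176), as for 0.0582% of genes tested in either direction. Its change was small, and it was called on these same libraries. Without the GC correction its edgeR adjusted p was 0.27 with 16 libraries and 0.0946 without fibronectin anti-ITGAV 3.

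Bcl6, a transcriptional repressor, rose by 0.26 on the log2 scale (SE 0.049, edgeR adjusted p = 0.0165), Phlpp1, a phosphatase that opposes AKT, by 0.42 (SE 0.075, adjusted p = 0.0122), and Bcl2l11, the pro-apoptotic protein BIM, by 0.22 (SE 0.046, adjusted p = 0.0468). Numb, an inhibitor of Notch signalling, had the smallest change of the 46 at 0.18 (SE 0.036, edgeR adjusted p = 0.0352). Tspan13, a tetraspanin, had one of the larger changes at 0.68 (SE 0.132, edgeR adjusted p = 0.0221), and its call was lost in 5 of the 16 fits that left out 1 library. Calls such as Bcl2l11 and Numb lay near the threshold and passed in 2 and 3 of those 16 fits, and Slc23a2 in 11. The other genes that rose were Pcp4l1, Clic4, Stap1, Pkib, Rab7b, Mocos and Frmd6, with log2 changes between 0.20 and 0.47. When 1 library was left out, Pcp4l1 and Clic4 passed in all 16 fits, Stap1 in 11, Pkib in 8, Mocos in 6, and Rab7b and Frmd6 in 5 each.

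Matrix and osteoclast-related genes gave few calls. Of 24 matrix proteases and inhibitors, Mmp12 (macrophage elastase) and Mmp13 (a collagenase) rose, against 0.246% of all genes tested. Both lie on chromosome 9 about 72 kb apart. Mmp12 rose by 0.37 (SE 0.059, edgeR adjusted p = 0.00456). Its uncoated libraries lay at 228 to 284 GC-adjusted CPM under IgG and 329 to 354 under anti-ITGAV, and its fibronectin libraries overlapped (456 to 577 against 560 to 724). Mmp13 changed by 0.33 (SE 0.069, adjusted p = 0.0366) and passed in 4 of the 16 fits that left out 1 library. Neither Mmp gene passed without the GC correction. Thbs1, the matricellular protein thrombospondin-1, was the only call among 30 matrix genes, at 0.34 (SE 0.063, edgeR adjusted p = 0.0165).

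Atp6v0d2, a proton pump subunit used in osteoclast and macrophage fusion, was the only one of 18 osteoclast and fusion genes to pass, at 0.29 (SE 0.053, edgeR adjusted p = 0.0129). Of all genes tested, 0.246% rose, and this share applies to each single call in the lists below. The log2 change was positive for 17 of the 18, against 7812 of all 15469 genes tested. The median was 0.11, and it varied between libraries with an SD of 0.049 after coating and antibody were taken out. Dcstamp, a fusion receptor, had a value of 0.64 (SE 0.193) and did not pass. In the lipid list, Lpl was the only call among 30 genes, and the lipid-sensing receptor Pparg lay just outside the threshold at 0.34 (SE 0.074, edgeR adjusted p = 0.0508). Cd14, the lipopolysaccharide co-receptor, was the only call among the 22 macrophage identity genes, at 0.30 (SE 0.056, edgeR adjusted p = 0.0165). Cd83, a surface protein that stabilises MHC class II, was the only call among 14 class II presentation genes, at 0.42 (SE 0.083, adjusted p = 0.0252). Cd83 kept its call in 9 of the 16 fits that left out 1 library.

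The transcripts of the antibody's own target and its partners did not pass. Itgav read 0.09 on the log2 scale (SE 0.063), with an edgeR adjusted p of 0.874 and 91.1 to 162 GC-adjusted CPM in IgG libraries and 96.8 to 176 in anti-ITGAV libraries. Its beta partners read 0.04 (SE 0.031) for Itgb1, 0.16 (SE 0.136) for Itgb3 and -0.03 (SE 0.032) for Itgb5. An antibody acts on the protein, so these transcript levels are no check of the blockade. None of 13 alpha-V integrin and RGD-binding integrin genes passed, nor did any of 38 genes of integrin signalling and focal adhesion (median 0.00). Of 38 actin and myosin genes, Myo1e was the only one that passed (median 0.03), while 0.246% of all genes tested rose. None of 36 type I interferon response genes passed (median 0.08) and none of 33 lysosome genes (median 0.05, positive for 32). After coating and antibody were taken out, these medians varied between libraries with SDs of 0.109 and 0.055. All 12 tested mitochondrial transcripts had positive values, with a median of 0.19, or 0.09 without fibronectin anti-ITGAV 3, and none passed. The corresponding SD between libraries was 0.29, larger than that median.

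The antibody effect was next compared between the coatings. No gene passed the test of the coating by antibody interaction (edgeR, smallest adjusted p = 0.955, with 566 genes at an unadjusted p under 0.05), 0% of those tested. DESeq2 with the GC correction also gave 0, with a smallest adjusted p of 0.0502 and 673 genes at an unadjusted p under 0.05. Tested alone, the 8 uncoated libraries gave 16 genes (0.11% of 14508) and the 8 fibronectin libraries gave 1, Ltf (0.00688% of 14528). The contrasts for each coating within the fit of all 16 libraries gave 7 genes on uncoated dishes (0.0453% of 15469), all among the 46, and 10 on fibronectin (0.0646%), 9 of them among the 46. Ltf, Myo1e and Fos passed in both contrasts, while Lcn2, Camp and S100a9 passed in the fibronectin contrast and Lpl in the uncoated one. A difference between coatings is not shown by these counts, since the difference itself did not pass for any gene. All 8 genes that fell had a larger estimated fall on fibronectin, and 17 of the 38 that rose had a larger estimated rise there. Ltf read -0.59 (SE 0.086) on uncoated dishes and -0.94 (SE 0.087) on fibronectin, with an unadjusted edgeR interaction p of 0.00959 and an adjusted p of 0.955. S100a9 read -0.36 and -0.74, and Myo1e 0.60 and 0.37, with unadjusted interaction p-values of 0.0133 and 0.0206.

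**Figure D4:**
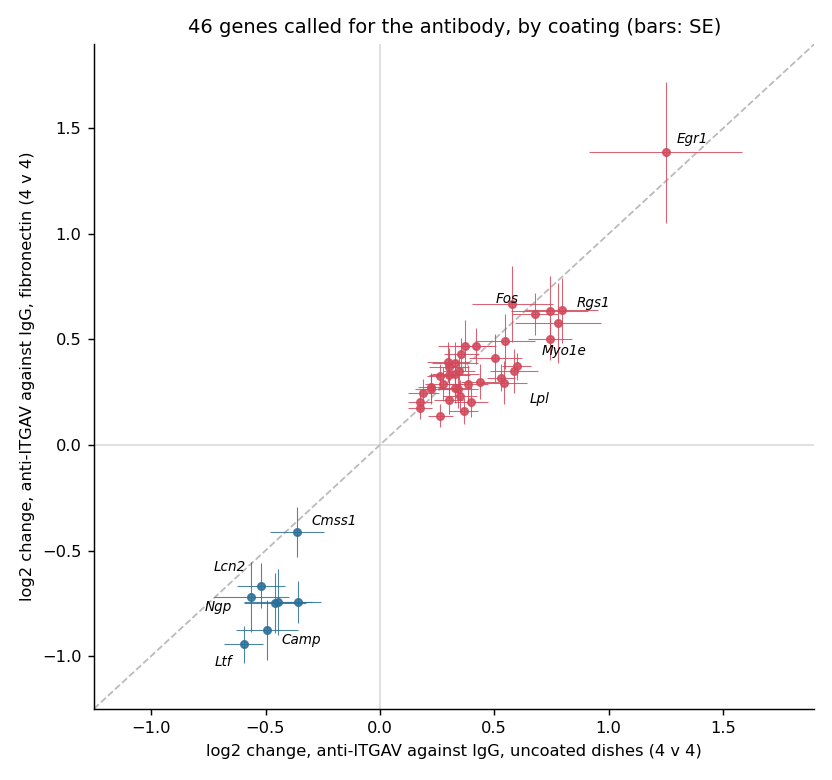
Log2 change with anti-ITGAV on uncoated dishes (x axis, 4 against 4 libraries) and on fibronectin (y axis, 4 against 4) for the 46 called genes, with SE bars and the dashed line of equal change. Every gene lies in the same-sign quadrants, which calling the genes on the average of both coatings favours. The 8 genes that fell lie below the line of equal change.

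The coating term of the same model passed for 33 of the 46, against 22.1% of all genes tested. It had the same sign as the antibody term for 25 of them, for example Myo1e (0.56 higher on fibronectin), Pcdh7 (0.92), Mmp12 (0.95), Fos (0.58) and Rgs1 (0.85). It had the opposite sign for 8 genes, all of which rose with anti-ITGAV and were lower on fibronectin, among them Thbs1 (-1.29), Cytip (-0.63), Bcl2l11 (-0.40), Hpgd (-0.39) and Zfp36 (-0.29). Of the genes that fell with anti-ITGAV, Prss34 (-1.01), Camp (-0.49), Ctsg (-0.52), S100a9 (-0.37), Lcn2 (-0.34) and Ltf (-0.32) were also lower on fibronectin. Of the 25 genes with equal signs, 19 rose with anti-ITGAV and 6 fell. Over all genes tested, the coating term passed upward for 1813 and downward for 1601. Both terms come from the same 16 libraries, and whether their signs go together was not tested.

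The genes differed in how far their calls rested on the correction. Calls in all 4 fits, with and without the GC offset and with and without fibronectin anti-ITGAV 3, were made for 7 genes. These were Ltf, Lcn2 and S100a9 among those that fell, and Myo1e, Fos, Cytip and Plk2 among those that rose. Genes that edgeR called in neither fit without the GC offset included Lpl, Rgs1, Rgs2, Mmp12, Mmp13, Kcnj2, Clec7a, Hpgd, Atp6v0d2, Stap1, Camp, Ctsg and Prss34. Fitting DESeq2 with the same GC trend gave 120 genes, 0.776% of those with a p-value, including all 46. Nearest the threshold, the last calls were Mmp13 (adjusted p = 0.0366), Bcl2l11 (0.0468) and Cmss1 (0.0483), and genes just outside included Kcnk13, Psmc3ip and Fzd7 (each 0.0508, edgeR).

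**Figure D5:**
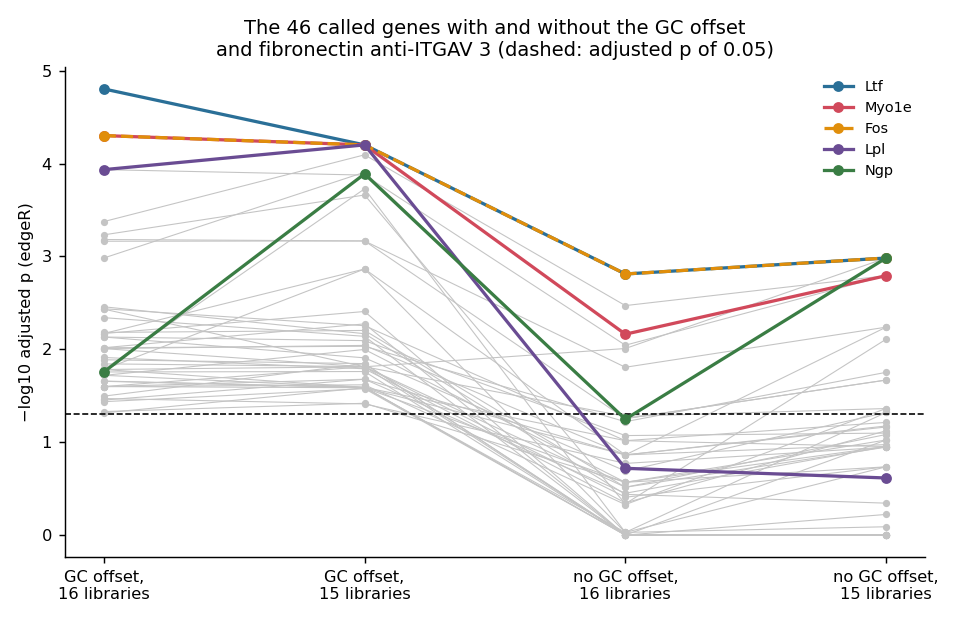
Adjusted p of the 46 called genes on a -log10 scale (y axis) in 4 edgeR fits (x axis), with lines joining a gene's values and the dashed line at an adjusted p of 0.05. With the GC offset all 46 lie above the line with 16 and with 15 libraries. Without it 7 of them do with 16 libraries and 17 with 15, and Lpl lies below the line in both.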

How the data were processed

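Poly(A)-selected RNA of 16 mouse macrophage libraries was sequenced in paired ends, per the labels' protocols. The authors deposited 1 table of gene counts and 1 of FPKM, per the file headers. Per the submitters' processing notes, HISAT2, StringTie and featureCounts were used with the builds GRCm38.p6 and mm10, with no version, role or setting. Strand use in counting is not given, so overlapping genes cannot be told apart.

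The deposited counts (54532 genes, 27995035 to 43413650 per library) were tested in R 4.3.3 (edgeR 4.0.16, limma 3.58.1). Genes were kept by filterByExpr (minimum count 10), which left 15469 genes with 99.9% of counts. TMM factors were used. For each library a lowess curve (span 0.3) of the log2 CPM deviation (prior count 2) on transcript GC content, from GENCODE M21 on GRCm38, entered the model as an offset. The 12 tested genes without a GC value had no such offset. The model was coating plus antibody, fitted by the robust quasi-likelihood method, with Benjamini-Hochberg adjustment over all tested genes and a threshold of 0.05. GC-adjusted CPM is TMM-scaled CPM divided by that curve. The deposited FPKM values only compare levels between genes. Counts for these 15469 genes were simulated from the same fit, with its GC curves and dispersions and 200 changed genes. On them the test recovered 44% of 1.3-fold and 79.6% of 2-fold changes, with 2.02% false calls. Without the GC offset it recovered 6% and 77.6%, with 0% false calls. The simulated GC trends came from the fitted curves, so these rates are no check of the correction. No libraries were near-identical.

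Named genes were protein-coding with an adjusted p under 0.05 and a mean of at least 1 CPM: per direction the 10 with the smallest p and the 6 with the largest change. Myo1e, Fos, Lpl, Ltf, Ngp, Itgav, Itgb1, Itgb3 and Itgb5 were always named, with up to 4 members with the smallest p of each list described. Other genes were named after their values were seen. Members and lists (35 lists, 863 distinct symbols, 780 tested), and Myo1e, Fos, Lpl, Ltf and Ngp, were chosen with earlier results of these data known. Alternatives were DESeq2 1.42.0, limma voom, other scalings and filters, a replicate block, each coating alone, no GC offset and each library left out. Promoters were matched for 10346 tested genes by symbol. Figures were drawn with Python 3.11.15 and matplotlib 3.10.9.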

Additional observations from a re-analysis of the deposited data

Results flagged for a closer look

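In groups of 4 libraries, 112 sets of 4 values were examined for a library far from the other 3 (25 named genes, the mitochondrial share, the GC rho and the total count), and 9 stood out. Chance alone gives about 1 in 20.

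Fibronectin anti-ITGAV 3 accounted for 4 of the 9. Its mitochondrial share was 3.67% against 1.35% to 1.45% in the other 3 libraries of its group. In the same library Ngp stood at 81.5 GC-adjusted CPM against 41.3 to 46.4, Lcn2 at 18.2 against 13.5 to 14.2, and Myo1e at 192 against 172 to 173. Lcn2 and Ngp, which fell with the antibody, thus stood nearer to the IgG level there, and Myo1e, which rose, stood farther from it. Whether the RNA quality of this library bears on these values was not tested.

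Lcn2 also had 1 high library in fibronectin IgG (replicate 3, 27.4 against 22.3 to 22.5) and 1 low library in uncoated IgG (replicate 4, 24.9 against 29.5 to 30.2). Plk2, the polo-like kinase gene, was low in uncoated anti-ITGAV 2 (54.4 against 65.4 to 66.2). Itgb3, which did not pass, was high in fibronectin anti-ITGAV 1 (5.99 against 4.69 to 4.72). Fibronectin anti-ITGAV 4 had the lowest total of its group, 28521819 counts against 36514311 to 37681281.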

How the results depend on the processing

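All 46 called genes kept their direction under each alternative run. The count of 46 called genes was 9 without the GC offset, 22 without it and without fibronectin anti-ITGAV 3, 120 with DESeq2 and the GC trend, 89 with limma voom and quality weights, 16 in uncoated and 1 in fibronectin libraries alone, and 3 when tested against a 1.2-fold change. DESeq2 without the GC offset, added after seeing the data, gave 48. Leaving out 1 library at a time gave 32 (without fibronectin IgG 3) to 67 (without fibronectin anti-ITGAV 3). Of Myo1e, Fos, Lpl, Ltf and Ngp, 5 passed in the reported fit, 3 without the GC offset, 4 without it and without fibronectin anti-ITGAV 3, 5 with DESeq2 and no GC offset, 1 in fibronectin libraries alone, and 4 to 5 with 1 library left out. Called genes that belong to a list numbered 23, or 5 without the GC offset, 41 with DESeq2 and 18 to 27 with 1 library left out. The causes were not tested. The interaction gave 0 calls in each of its 22 settings. Without fibronectin anti-ITGAV 3 the difference by antibody was 0.106 in GC rho (exact permutation p = 0.543) and -0.031 percentage points in mitochondrial share (p = 0.432), against 0.013 and 0.254.

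Same-numbered libraries of different groups had a median correlation of deviations of 0.007 (-0.739 to 0.625, with 7 of 24 over 0.1). Other-numbered libraries had a median of -0.010 (-0.651 to 0.664, with 28 of 72 over 0.1). The numbers thus showed no pairing of their own. The labels do not give the mice, so these values cannot tell whether libraries shared mice or batches. A replicate block with the GC offset called 38 genes, 37 of them among the 46.

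At this depth the simulated test recovered 16.3% of 1.2-fold changes, so genes that did not pass may still differ.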
